A study of Arabidopsis thaliana with 12 samples.

Results

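The difference in hypoxia response between HRE1-overexpressing and wild-type Arabidopsis seedlings was measured on 8 of the 12 arrays of the study. The value of interest is a difference of differences. It is the hypoxia minus air difference in HRE1 overexpressors, minus the hypoxia minus air difference in the wild type. The 8 arrays were 2 of 35S::HRE1 seedlings in hypoxia, 2 of 35S::HRE1 seedlings in air, 2 of wild-type Col-0 seedlings in hypoxia and 2 of wild-type seedlings in air. All seedlings were of the Columbia-0 ecotype, were 7 days old and had been raised at 23 °C on agar medium with 30 mM sucrose, and they spent the 4 h of treatment in darkness at 1% oxygen (hypoxia) or 21% oxygen (air). The overexpressors, here HRE1ox, carry HRE1 behind the constitutive 35S promoter of a plant virus, so the transgene is read in most tissues. The number of independent transgenic lines was not stated in the labels. The other 4 arrays were of 35S::HRE2 seedlings (HRE2ox) in the same treatments and serve as a second transgenic genotype for comparison.

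HRE1 and HRE2 are ethylene response factors of group VII, transcription factors that plants use in the response to low oxygen. Proteins of this group carry a cysteine behind the initiator methionine, and in air an oxygen-dependent N-degron pathway marks them for degradation. When oxygen falls they persist and switch on genes of ethanolic fermentation, sugar use and oxygen sensing. A transcript driven by 35S is already abundant before hypoxia, so the comparison asks which genes then respond to low oxygen in another way than in the wild type.

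Levels are log2 (intensity + 1) of Affymetrix ATH1 probe sets, which are groups of short probes for 1 transcript. A difference of responses is given as log2 difference ± SE with n = 2 arrays in each of the 4 groups, and its adjusted p is from limma with replicate number as a block, over 13687 probe sets that reached an intensity of 15 (log2 4) on at least 2 of the 12 arrays. A call is an adjusted p under 0.05. A group mean under log2 4 lies near background, so the size of a difference that rests on such a group is uncertain and may be understated. Replicate 1 of each of the 4 groups stood apart from replicate 2 in the 5' probe set of an added control transcript (AFFX-ThrX-5_at, 7.17 to 7.48 against 3.63 to 4.07), with 1 such array in each group. WT air replicate 2 is titled wild type, while its ecotype entry names 35S::HRE2, and the title decided its group. On that array 245173_at, a probe set with no assigned gene, read 3.23, and 3.39 on the other WT air array, against 14.51 and 14.40 in HRE2ox air. Transcripts of 8 nuclear genes of green tissue summed to intensities of 90817 to 99663 on the 8 arrays. The 3 measured root hair genes summed to 21.2 to 25.4 in HRE1ox hypoxia and 114.7 to 174.2 in HRE1ox air, against 20.4 to 22.7 in WT hypoxia and 85.8 to 138.9 in WT air. In whole seedlings fewer cells of a type and less RNA per cell cannot be told apart.

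HRE1 itself had no assigned probe set and is not analysed here, so the transgene could not be read from a named probe set. The probe set with the largest difference of responses has no assigned gene. It read 14.09 and 14.41 in HRE1ox hypoxia and 14.16 and 14.22 in HRE1ox air, against 10.37 and 10.63 in WT hypoxia and 5.97 and 6.39 in WT air. The 4 HRE1ox arrays lay above all others, and the hypoxia minus air difference among them did not pass the test (0.06 ± 0.11, adjusted p = 0.736), while WT hypoxia was higher than WT air by 4.32 ± 0.11. The difference of responses was -4.26 ± 0.16 (adjusted p = 0.000317), with -4.47 within replicate 1 and -4.04 within replicate 2. In HRE1ox air this probe set was thus already 8.01 above WT air.

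Of the 13687 probe sets, 79 had a hypoxia response in HRE1ox that was called different from WT (0.577%). In 39 of them the response was more positive in HRE1ox (0.285%) and in 40 more negative (0.292%). An unadjusted p under 0.05 was reached by 1896 probe sets. The hypoxia response itself was called for 27% of all probe sets in HRE1ox (12.3% higher, 14.7% lower) and for 16.1% in WT (7.37% higher, 8.72% lower). Between HRE1ox and WT 3.43% were called in hypoxia (1.66% higher, 1.77% lower in HRE1ox) and 1.35% in air (0.796% higher, 0.555% lower in HRE1ox). Of the 79, 37 had 1 assigned gene, 16 with a more positive and 21 with a more negative response. Among the 39, the response in HRE1ox had a median of 1.81 (from -1.32 to 7.32) and the response in WT a median of 0.51 (from -2.32 to 5.59). Among the 40, the response in HRE1ox had a median of -1.20 (from -3.68 to 0.64) and that in WT a median of 0.10 (from -2.03 to 4.32). The 39 differed between HRE1ox and WT by a median of 1.29 in hypoxia and of -0.02 in air, and the 40 by a median of -0.90 in hypoxia and 0.45 in air. The first group thus parted from WT mainly in hypoxia, while the second was lower than WT in hypoxia and somewhat higher in air. These medians share arrays with the difference that chose the probe sets, and are a description only. At least 1 of the 4 groups lay near background in 15 of the 39 and 10 of the 40.

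The number of calls differed between fits. Without the replicate block the same 8 arrays gave 1 call, and a fit of all 12 arrays without the block gave 11. Leaving out 1 array at a time gave 12 calls without HRE1ox hypoxia replicate 1, 7 without HRE1ox hypoxia replicate 2, 7 without HRE1ox air replicate 1, 2 without HRE1ox air replicate 2, 1 each without WT hypoxia replicate 1, WT hypoxia replicate 2 and WT air replicate 1, and 3 without WT air replicate 2. All 79 differences kept their sign in each of these fits. The fits without the block give the same difference as the main fit, so there the sign could not change. The fits that left out 1 array share all their arrays with the fit that chose the probe sets. The unassigned probe set described above was called in all 8 of them, AT5G59170 was called in 5, 264436_at in 3, CP1, 250610_at and 263391_at in 2 each, and AT1G78070, AT3G48450, AT1G29090, AT5G45950, 254232_at, 250662_at and 247435_at in 1 each. The other named probe sets lost their call whichever of the 8 arrays was left out. The 11 calls of the 12-array fit were the same unassigned probe set, AT2G22880, AT4G30680, AT5G01700, AT1G10585, AT1G47400, AT5G45950, 246310_at, 253404_at, 263391_at and 264561_at.

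Several genes rose in hypoxia in both genotypes and rose further in HRE1ox. AT2G22880 encodes a small protein with a VQ motif, a class that binds WRKY transcription factors. AT2G22880 read 7.50 and 7.56 in HRE1ox hypoxia and 3.09 and 3.12 in HRE1ox air, against 5.74 and 6.16 in WT hypoxia and 3.08 and 3.08 in WT air. In air the 4 arrays were alike and near background, and in hypoxia both HRE1ox arrays lay above both WT arrays. Its difference of responses was 1.56 ± 0.18 (adjusted p = 0.0329), and in hypoxia HRE1ox exceeded WT by 1.58 ± 0.13 (adjusted p = 0.00279). AT3G48450 read 7.36 and 7.63 in HRE1ox hypoxia and 3.78 and 3.69 in HRE1ox air, against 5.33 and 5.69 in WT hypoxia and 3.24 and 3.51 in WT air. This gene of the RIN4 family, relatives of a membrane-bound regulator of immunity, had a difference of 1.62 ± 0.18 (adjusted p = 0.0284), and its hypoxia arrays did not overlap between genotypes. Its HRE1ox air and WT air means of 3.73 and 3.37 lay near background. AT1G78070 read 8.92 and 8.84 in HRE1ox hypoxia and 6.04 and 5.91 in HRE1ox air, against 7.58 and 7.43 in WT hypoxia and 6.38 and 6.15 in WT air. For AT1G78070, a WD40-repeat protein, the response was 2.90 ± 0.09 in HRE1ox and 1.24 ± 0.09 in WT, a difference of 1.66 ± 0.13 (adjusted p = 0.0135).

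AT3G03020 responded by 3.26 ± 0.15 in HRE1ox and 1.65 ± 0.15 in WT, and the difference was 1.61 ± 0.21 (adjusted p = 0.0382). AT1G04350, of the family of iron- and 2-oxoglutarate-dependent oxygenases, read 10.01 and 9.85 in HRE1ox hypoxia and 8.25 and 8.17 in HRE1ox air, against 9.01 and 8.80 in WT hypoxia and 8.31 and 8.37 in WT air. It was well above background throughout, and the HRE1ox response exceeded that of WT by 1.16 ± 0.15 (adjusted p = 0.0376). The subtilisin-like protease SBT1.3 responded by 1.38 ± 0.10 in HRE1ox and 0.37 ± 0.10 in WT, with a difference of 1.00 ± 0.14 (adjusted p = 0.0434). Of the probe sets without a gene, 264436_at responded by 4.75 ± 0.13 in HRE1ox and 2.36 ± 0.13 in WT, and 254232_at by 3.92 ± 0.17 and 1.92 ± 0.17 in the same order of genotypes. Their differences were 2.39 ± 0.18 and 2.00 ± 0.24 (adjusted p = 0.0129 and 0.0346).

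A second set rose in hypoxia in HRE1ox, with a WT response that did not pass the test. The largest such difference was that of AT5G59170, a proline-rich gene of the extensin-like cell wall proteins. AT5G59170 read 5.95 and 6.61 in HRE1ox hypoxia and 3.45 and 4.30 in HRE1ox air, against 3.99 and 4.61 in WT hypoxia and 4.15 and 4.66 in WT air. Both HRE1ox hypoxia arrays exceeded the other 6, and the difference of responses was 2.51 ± 0.15 (adjusted p = 0.00487), with 2.66 within replicate 1 and 2.36 within replicate 2. The WT response was -0.10 ± 0.11 (adjusted p = 0.585), and the HRE1ox air mean of 3.88 lay near background. AT4G30680 read 5.06 and 4.90 in HRE1ox hypoxia and 3.12 and 3.22 in HRE1ox air, against 3.33 and 3.62 in WT hypoxia and 3.07 and 3.31 in WT air. AT5G01700 read 4.35 and 4.72 in HRE1ox hypoxia and 3.08 and 3.11 in HRE1ox air, against 3.09 and 3.10 in WT hypoxia and 3.05 and 3.10 in WT air. AT4G30680 encodes a protein with the MA3 domain of translation initiation factors and AT5G01700 a protein phosphatase of type 2C. In both, the HRE1ox hypoxia arrays were the only ones of all 12 above log2 4. The filter asked for 2 such arrays, so both genes were tested only through that group. Their standing alone above log2 4 was thus a condition of testing and no support for the difference. The differences were 1.52 ± 0.18 and 1.42 ± 0.17 (adjusted p = 0.0346 and 0.0346).

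AT5G48350 had a difference of 1.39 ± 0.18 (adjusted p = 0.0387), with 3 of its 4 groups near background. The plant defensin LCR67, a small antimicrobial-type peptide, differed by 1.18 ± 0.15 (adjusted p = 0.0386), from a response of 1.17 ± 0.11 in HRE1ox and -0.00 ± 0.11 in WT. LCR67 too had 3 of its 4 groups near background, and both genes passed the filter only through the HRE1ox hypoxia arrays. The glucosyltransferase UGT85A4 read 5.96 and 6.32 in HRE1ox hypoxia and 5.02 and 5.25 in HRE1ox air, against 5.15 and 5.20 in WT hypoxia and 5.23 and 5.52 in WT air. All its groups were above background and HRE1ox hypoxia was the highest, with a difference of 1.21 ± 0.15 (adjusted p = 0.0376). EXPB3, a beta-expansin of the family that loosens cell walls, responded by 1.27 ± 0.15 in HRE1ox and -0.20 ± 0.15 in WT, a difference of 1.48 ± 0.22 (adjusted p = 0.046). Its HRE1ox hypoxia arrays were 7.73 and 7.06 and its WT air arrays 6.90 and 5.83, so the replicates of a group spread widely. The probe sets 250610_at, 263391_at and 248125_at also rose in HRE1ox hypoxia, with differences of 2.27 ± 0.34, 1.90 ± 0.19 and 1.69 ± 0.22 (adjusted p = 0.0483, 0.0282 and 0.0382). Their group means were near background outside HRE1ox hypoxia, and they too passed the filter only through that group. AT4G39420 moved in opposite directions, higher by 0.49 ± 0.10 in HRE1ox hypoxia over HRE1ox air and lower in WT hypoxia than in WT air (-0.65 ± 0.10). It read 5.52 and 6.17 in HRE1ox hypoxia and 4.94 and 5.77 in HRE1ox air, against 4.96 and 5.68 in WT hypoxia and 5.55 and 6.39 in WT air. Hypoxia and air arrays thus overlapped in both genotypes, and the small SE rests on the replicate block.

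**Figure D1:**
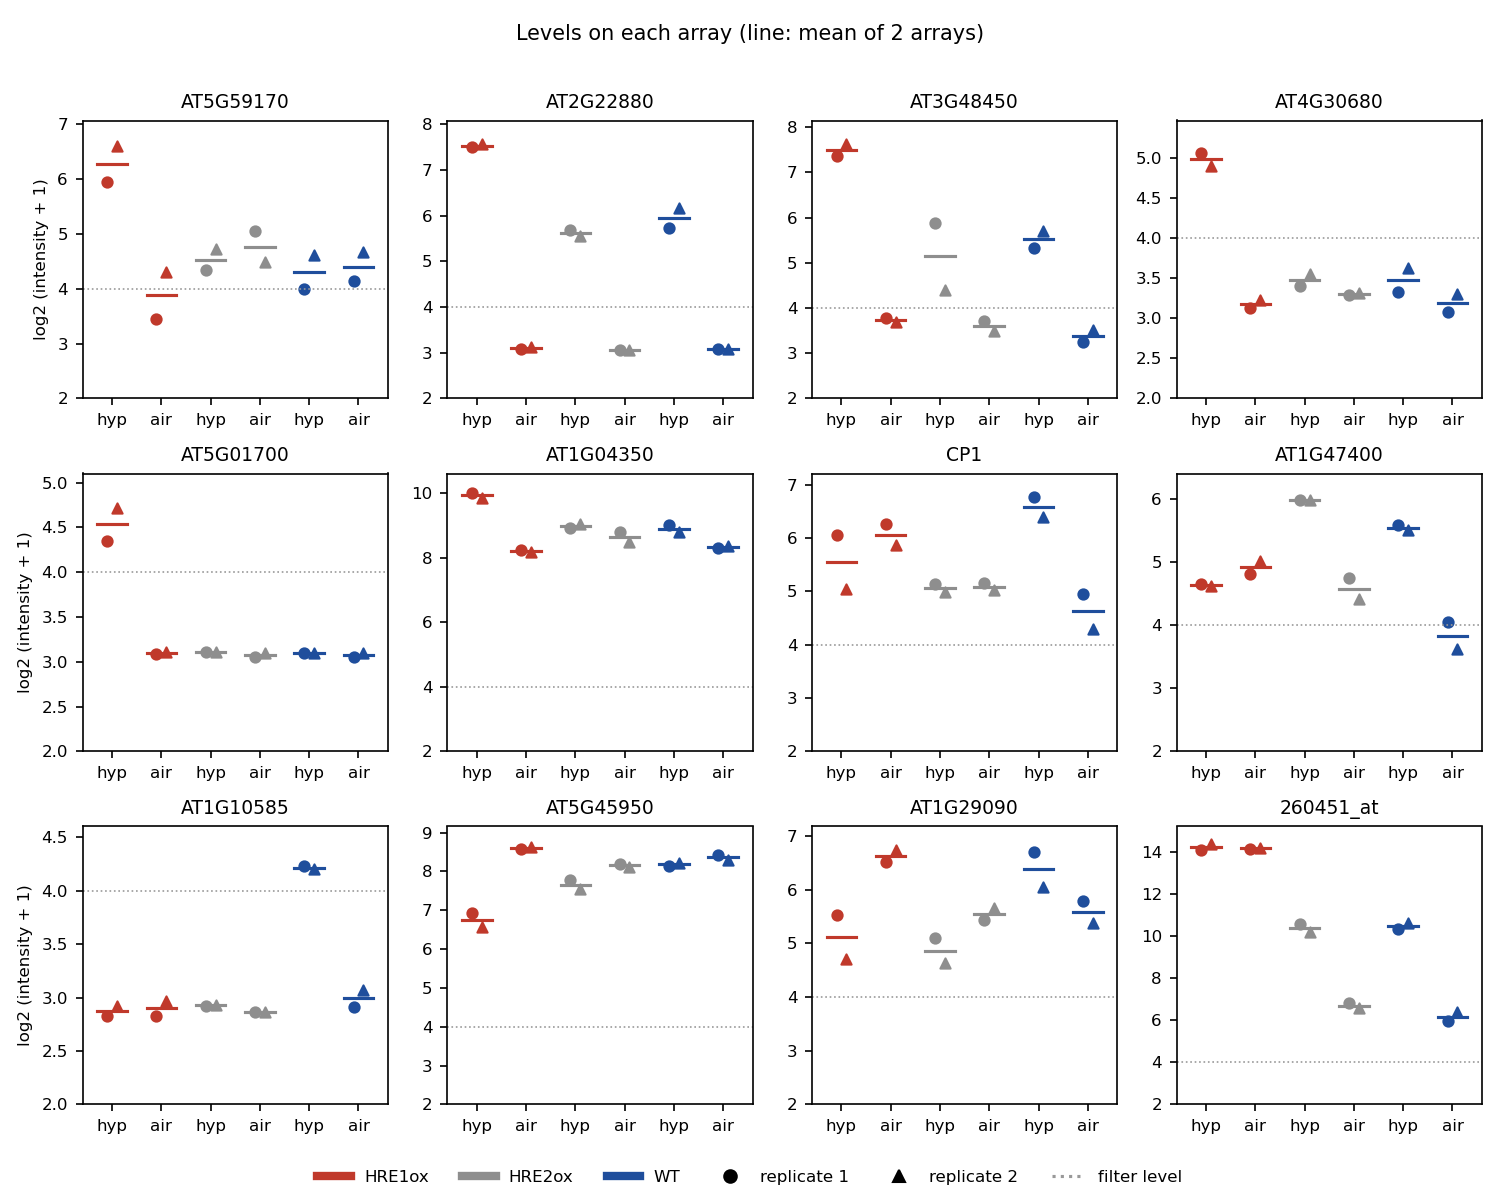
Each panel shows 1 probe set, with log2 (intensity + 1) on the vertical axis and the groups on the horizontal axis (hyp, hypoxia; HRE1ox in red, HRE2ox in grey, WT in blue). Circles and triangles are replicates 1 and 2, short lines are means of 2 arrays, and the dotted line is the filter level of log2 4. In AT4G30680 and AT5G01700 the HRE1ox hypoxia arrays are the ones above that line, and in AT1G10585 the WT hypoxia arrays are. Each of these genes passed the filter only through those arrays.

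The reverse was seen in genes that rose in WT hypoxia, with a smaller or opposite response in HRE1ox. CP1, a cysteine protease of the papain family, had the largest such difference among named genes. CP1 read 6.06 and 5.05 in HRE1ox hypoxia and 6.26 and 5.87 in HRE1ox air, against 6.77 and 6.39 in WT hypoxia and 4.96 and 4.30 in WT air. In WT the hypoxia arrays lay above the air arrays, and in HRE1ox they did not, so that the difference of responses was -2.46 ± 0.23 (adjusted p = 0.0275), with -2.01 within replicate 1 and -2.91 within replicate 2. HRE1ox air was above WT air by 1.43 ± 0.16 (adjusted p = 0.0338) and HRE1ox hypoxia was below WT hypoxia (-1.03 ± 0.16, adjusted p = 0.0213). AT1G47400 read 4.66 and 4.63 in HRE1ox hypoxia and 4.80 and 5.02 in HRE1ox air, against 5.58 and 5.51 in WT hypoxia and 4.04 and 3.62 in WT air. AT1G47400 encodes a small peptide of the IRON MAN family, which acts in the response to iron shortage. Its air level was higher in HRE1ox than in WT (1.08 ± 0.15, adjusted p = 0.0412), its WT response was 1.71 ± 0.15, and the HRE1ox response of -0.27 ± 0.15 did not pass the test (adjusted p = 0.222). The difference was -1.99 ± 0.21 (adjusted p = 0.0284), and the WT air mean of 3.83 lay near background. The unassigned 255795_at also had a higher air level in HRE1ox than in WT, by 2.38 ± 0.15 (adjusted p = 0.0072). It rose in WT by 1.47 ± 0.15 and fell in HRE1ox (-0.67 ± 0.15, adjusted p = 0.0183), a difference of -2.14 ± 0.22 (adjusted p = 0.0282). In hypoxia, unlike CP1 and AT1G47400, it was not lower in HRE1ox than in WT (0.24 ± 0.15, adjusted p = 0.471).

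Other genes of this kind had air levels that were not called different. AT1G10585 read 2.83 and 2.92 in HRE1ox hypoxia and 2.83 and 2.97 in HRE1ox air, against 4.23 and 4.20 in WT hypoxia and 2.92 and 3.07 in WT air. AT1G10585 encodes a basic helix-loop-helix transcription factor (difference -1.25 ± 0.14, adjusted p = 0.0284). Both WT hypoxia arrays were above log2 4 while the other 6 were near background. The gene passed the filter only through those WT hypoxia arrays, so their place above log2 4 was a condition of testing and no support. AT5G42830, an acyltransferase of the HXXXD type, responded by 0.64 ± 0.11 in HRE1ox and 1.83 ± 0.11 in WT, a difference of -1.19 ± 0.16 (adjusted p = 0.0396). All its groups but WT hypoxia lay near background, and it too passed the filter only through the WT hypoxia arrays. AT5G24210, a lipase-like hydrolase, responded by -0.23 ± 0.10 in HRE1ox and 0.93 ± 0.10 in WT (difference -1.16 ± 0.15, adjusted p = 0.0376). In both, HRE1ox was below WT in hypoxia, with -1.14 ± 0.11 for AT5G42830 and -1.15 ± 0.10 for AT5G24210 (adjusted p = 0.00419 and 0.00382). In 3 further genes the responses had opposite signs. AT1G29090 read 5.53 and 4.70 in HRE1ox hypoxia and 6.52 and 6.74 in HRE1ox air, against 6.71 and 6.05 in WT hypoxia and 5.78 and 5.38 in WT air. The papain-type protease AT1G29090 had a difference of -2.31 ± 0.32 (adjusted p = 0.0434), although its WT response alone did not pass the test (0.79 ± 0.23, adjusted p = 0.0588). AT1G50060, of the CAP family that includes the pathogenesis-related protein PR-1, responded by -0.70 ± 0.17 in HRE1ox and 0.97 ± 0.17 in WT, a difference of -1.68 ± 0.24 (adjusted p = 0.0434). The jacalin-type lectin AT1G52070 responded by -0.83 ± 0.11 and 0.63 ± 0.11 in the same order, a difference of -1.46 ± 0.16 (adjusted p = 0.0284). It read 8.39 and 7.71 in HRE1ox hypoxia and 9.27 and 8.48 in HRE1ox air, against 9.68 and 8.66 in WT hypoxia and 9.01 and 8.07 in WT air. The WT hypoxia and air arrays thus overlapped, and the small SE rests on the replicate block.

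Lastly, genes fell in HRE1ox hypoxia, with a smaller or no called fall in WT. GDSL lipases are secreted esterases that act on lipids of the plant surface and wall, and AT5G45950 is 1 of them. AT5G45950 read 6.93 and 6.57 in HRE1ox hypoxia and 8.57 and 8.63 in HRE1ox air, against 8.14 and 8.23 in WT hypoxia and 8.44 and 8.29 in WT air. Its HRE1ox hypoxia arrays lay below the other 6, with a difference of -1.67 ± 0.18 (adjusted p = 0.0284) and -1.34 within replicate 1 and -1.99 within replicate 2. AT5G55050, also a GDSL lipase, fell in both genotypes, with a response of -2.85 ± 0.14 in HRE1ox and -1.52 ± 0.14 in WT, and the difference was -1.33 ± 0.19 (adjusted p = 0.0434). Its HRE1ox hypoxia mean of 3.81 lay near background. XTH16, a xyloglucan endotransglucosylase that remodels cell walls, read 5.30 and 4.95 in HRE1ox hypoxia and 7.57 and 7.37 in HRE1ox air, against 6.17 and 6.10 in WT hypoxia and 7.40 and 7.31 in WT air. It fell further in HRE1ox than in WT, with a difference of -1.12 ± 0.15 (adjusted p = 0.0396). The unassigned 250662_at likewise fell in both genotypes (-3.68 ± 0.10 in HRE1ox and -2.03 ± 0.10 in WT) with a difference of -1.66 ± 0.14 (adjusted p = 0.0152).

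AT5G11970, AT3G61930 and the CAP family gene AT4G25780 fell in HRE1ox hypoxia from air levels that were above WT. For AT3G61930 HRE1ox air exceeded WT air by 1.09 ± 0.12 (adjusted p = 0.0338), and the difference of responses was -1.40 ± 0.17 (adjusted p = 0.0346). For AT5G11970 and AT4G25780 the air differences were 0.62 ± 0.09 and 0.84 ± 0.12 (adjusted p = 0.0443 and 0.0412), and the differences of responses were -1.17 ± 0.13 and -1.13 ± 0.17 (adjusted p = 0.0298 and 0.0453). In hypoxia HRE1ox and WT were not called different for AT3G61930 and AT4G25780 (adjusted p = 0.232 and 0.248). Both genotypes lay near background there, with HRE1ox and WT means of 3.20 and 3.52 for AT3G61930 and 3.44 and 3.73 for AT4G25780. The WT air mean of AT3G61930 (3.62) was near background too, and this gene passed the filter only through the HRE1ox air arrays. AT3G06070 responded by -1.04 ± 0.13 in HRE1ox and 0.16 ± 0.13 in WT, a difference of -1.19 ± 0.18 (adjusted p = 0.0469). The unassigned 247435_at and 251282_at had differences of -1.95 ± 0.26 and -1.59 ± 0.16 (adjusted p = 0.0396 and 0.0282).

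**Figure D2:**
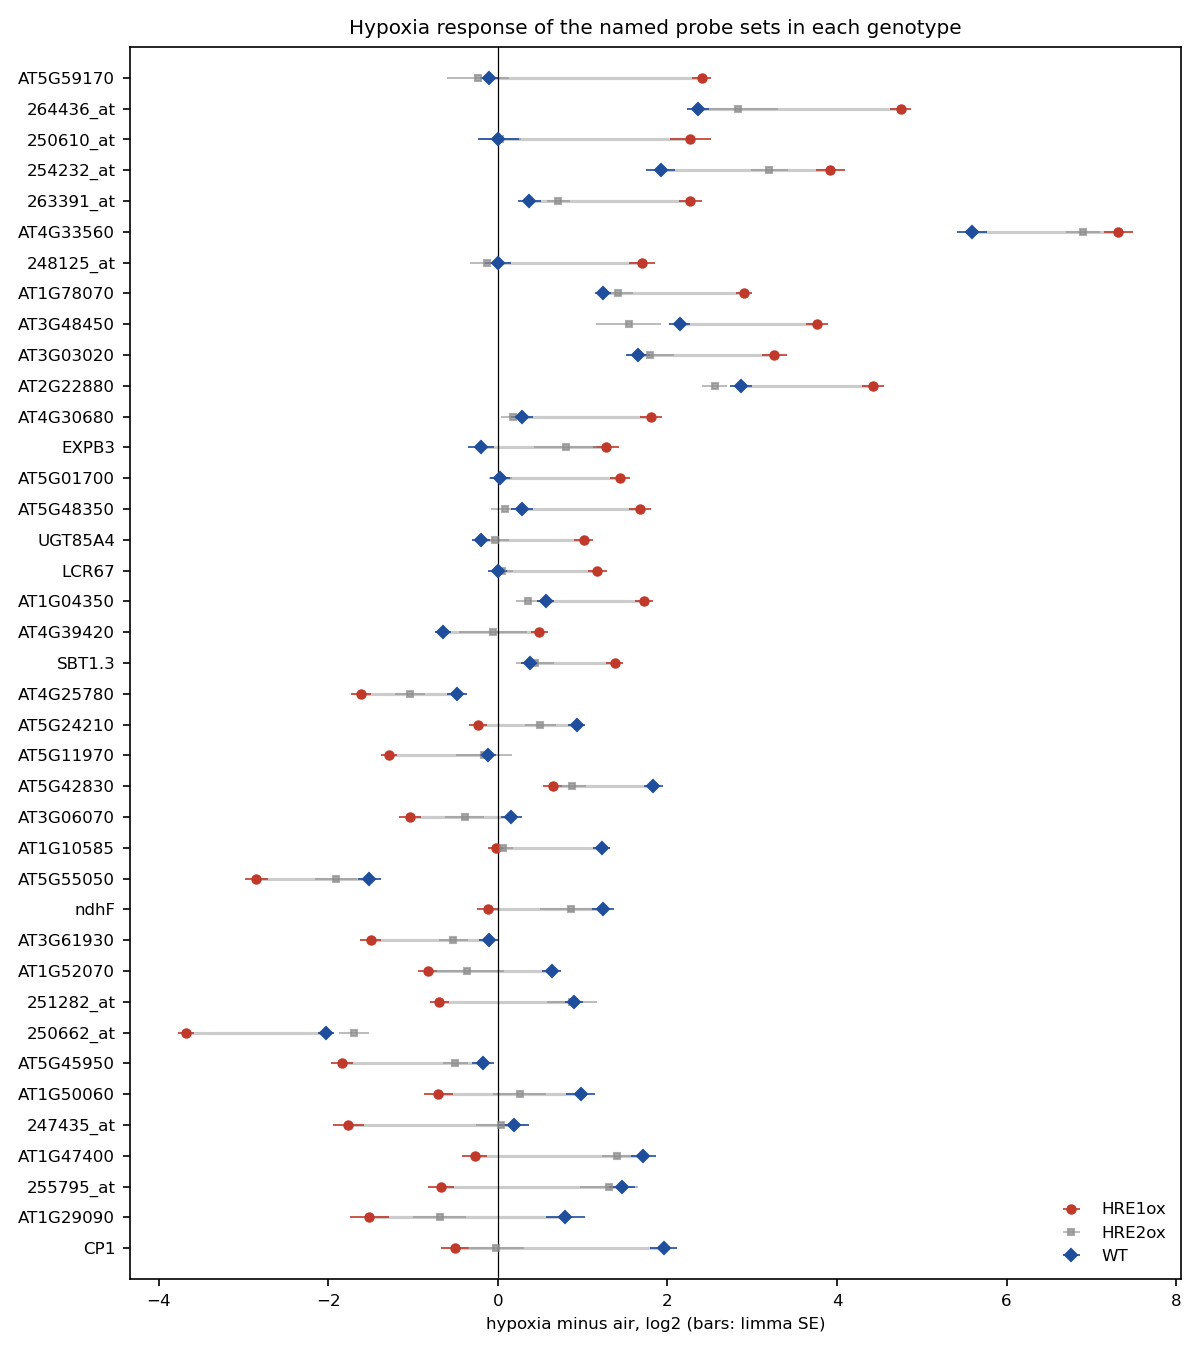
The hypoxia minus air difference on the log2 scale (horizontal axis) is shown for 39 of the 40 named probe sets, leaving out the unassigned one with the largest difference, ordered by the HRE1ox minus WT difference. Points are HRE1ox (red circles), HRE2ox (grey squares) and WT (blue diamonds), bars are limma SE, and grey lines join HRE1ox to WT. AT4G33560 is the probe set with the strongest responses in all 3 genotypes, and CP1 at the bottom is negative in HRE1ox and positive in WT.

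Genes that respond to low oxygen across many tissues were read from a list of 52, of which 27 had an assigned probe set and 26 were tested. ADH1, PDC1, SUS1, SUS4, HB1, LBD41, PCO1 and PCO2 are on the list without an assigned probe set and are not analysed here. All 26 were called higher in hypoxia in HRE1ox (background 12.3%) and 25 in WT (background 7.37%), and AT3G10020 was the exception. The median response of the 26 was 4.51 in HRE1ox and 3.80 in WT, against medians of 0.00 and -0.01 over all tested probe sets. The difference of responses was positive in 23 of the 26, as it was in 7020 of all 13687, with a median of 0.64 against 0.01 over all. AT4G33560 was the 1 member called (0.285% of all probe sets were called more positive), and 12 of the 26 had an unadjusted p under 0.05, against 1896 of all 13687. In hypoxia 8 of the 26 were higher in HRE1ox than in WT (background 1.66%), and in air AT4G33560 was lower (background 0.555%).

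AT4G33560, a gene of the wound-responsive family, gave the called difference. AT4G33560 read 11.08 and 11.03 in HRE1ox hypoxia and 3.41 and 4.06 in HRE1ox air, against 10.28 and 10.60 in WT hypoxia and 4.86 and 4.84 in WT air. The response was 7.32 ± 0.18 in HRE1ox and 5.59 ± 0.18 in WT, a difference of 1.73 ± 0.25 (adjusted p = 0.0434). In hypoxia HRE1ox exceeded WT by 0.61 ± 0.18, which did not pass the test (adjusted p = 0.126), and in air HRE1ox was below WT (-1.12 ± 0.18, adjusted p = 0.0443). The genotypes thus lay farther apart in air, where the HRE1ox mean was near background, than in hypoxia. AT1G72940 read 9.49 and 10.25 in HRE1ox hypoxia and 4.06 and 4.47 in HRE1ox air, against 7.63 and 8.73 in WT hypoxia and 4.22 and 4.48 in WT air. This gene, with a Toll-interleukin receptor domain, had the largest difference of the list, 1.77 ± 0.27, just short of the threshold (adjusted p = 0.0509), and in hypoxia it was higher in HRE1ox by 1.69 ± 0.19 (adjusted p = 0.00659).

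AT3G10040, a trihelix transcription factor that restrains the low-oxygen response, responded by 7.24 ± 0.17 in HRE1ox and 6.00 ± 0.17 in WT, a difference of 1.25 ± 0.24 (adjusted p = 0.0823). It was the 1 measured gene of 14 listed for oxygen sensing, and in hypoxia it was higher in HRE1ox by 1.11 ± 0.17 (adjusted p = 0.0193). For CML38, a calmodulin-like calcium sensor, the difference was 1.21 ± 0.24 (adjusted p = 0.0902), and for the Kelch-repeat gene AT3G27220 it was 1.25 ± 0.25 (adjusted p = 0.0917). AT2G15880, an extensin with leucine-rich repeats, differed by 1.08 ± 0.21 (adjusted p = 0.0841), and AT3G03270, a universal stress protein, by 0.77 ± 0.14 (adjusted p = 0.0699). None of these 5 passed the test for the difference of responses. AT2G15880 and AT3G03270 were nonetheless called higher in HRE1ox hypoxia than in WT hypoxia, by 1.15 ± 0.15 and 0.89 ± 0.10 (adjusted p = 0.0108 and 0.00563). The other 4 genes called higher in HRE1ox hypoxia than in WT hypoxia were AT3G29970, AT4G17670, AT5G10040 and AT1G33055, by 1.74 ± 0.34, 0.82 ± 0.12, 0.83 ± 0.12 and 0.62 ± 0.11 (adjusted p = 0.0441, 0.0146, 0.0183 and 0.0361). At the other end of the list AT1G74940, AT5G44730 and AT1G19530 had differences of -0.31 ± 0.17, -0.23 ± 0.13 and -0.18 ± 0.17, and none was called.

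Fermentation was represented by 2 measured genes of 12 listed. PDC2, a pyruvate decarboxylase that makes the acetaldehyde reduced to ethanol, read 10.67 and 11.06 in HRE1ox hypoxia and 5.75 and 5.19 in HRE1ox air, against 10.26 and 10.59 in WT hypoxia and 5.66 and 5.63 in WT air. Its response was 5.39 ± 0.22 in HRE1ox and 4.77 ± 0.22 in WT, and the difference of 0.62 ± 0.31 did not pass the test (adjusted p = 0.433). AT4G17260 read 9.41 and 9.43 in HRE1ox hypoxia and 6.25 and 6.11 in HRE1ox air, against 8.74 and 8.82 in WT hypoxia and 6.16 and 6.19 in WT air. This lactate dehydrogenase had a difference of 0.63 ± 0.14 (adjusted p = 0.114), also not called, although HRE1ox hypoxia exceeded WT hypoxia by 0.63 ± 0.10 (adjusted p = 0.0207). Of glycolysis and sucrose use, 3 genes of 18 were measured. PPDK, the cytosolic glyceraldehyde-phosphate dehydrogenase GAPC2 and the triose-phosphate isomerase TPI had differences of 0.16 ± 0.13, 0.10 ± 0.13 and 0.06 ± 0.14, with none called.

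**Figure D3:**
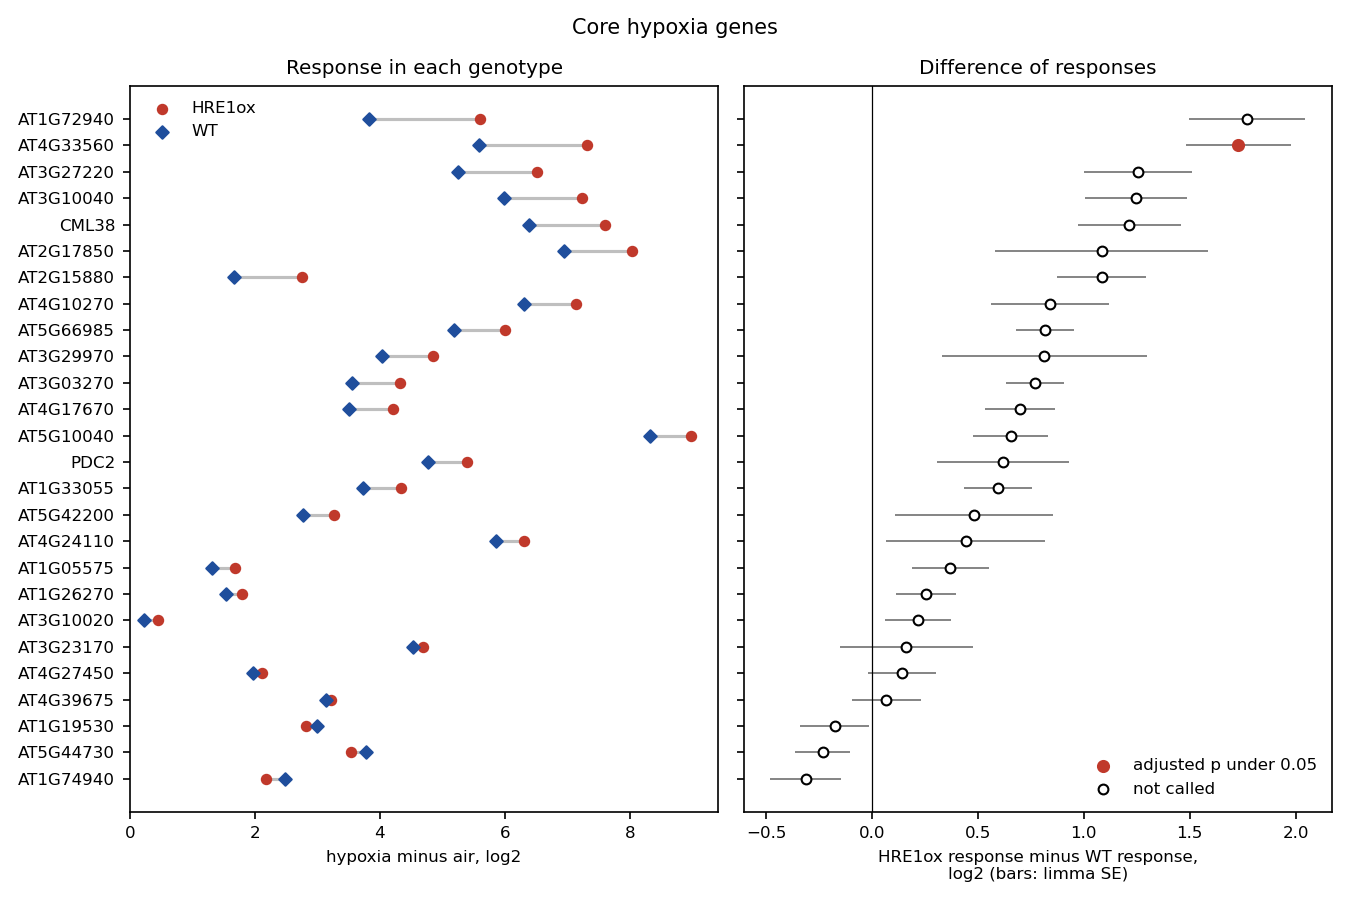
The left panel shows the hypoxia minus air difference on the log2 scale for 26 core hypoxia genes in HRE1ox (red circles) and WT (blue diamonds). The right panel shows the difference of these responses with limma SE, where the filled point, AT4G33560, is the 1 gene with an adjusted p under 0.05, and 23 of the 26 points lie right of 0.

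Genes of the chloroplast genome, which encode parts of the photosynthetic complexes, of the NADH dehydrogenase-like complex and of the plastid ribosome and RNA polymerase, were measured by 69 probe sets. Their median response was 0.04 in HRE1ox and 0.21 in WT. In WT all 69 differences were positive and 14 were called higher (background 7.37%), whereas in HRE1ox 3 were called higher (background 12.3%) and 1 lower (background 14.7%). The difference of responses was negative in 52 of the 69 with a median of -0.17, against 0.01 over all tested probe sets, and 1 was called (background 0.292%). That gene was ndhF, a subunit of the NADH dehydrogenase-like complex. ndhF read 4.09 and 4.18 in HRE1ox hypoxia and 4.18 and 4.31 in HRE1ox air, against 5.55 and 5.25 in WT hypoxia and 4.11 and 4.23 in WT air. Both WT hypoxia arrays exceeded the other 6, and the difference was -1.35 ± 0.18 (adjusted p = 0.0396). A fit of all 12 arrays without a block gave HRE1ox minus HRE2ox differences of responses with a median of 0.12 over the 69. The median over all tested probe sets was 0.03. They were positive in 46 of the 69 and in 7421 of all 13687, and 0 of the 69 were called (background 0.292%). The smaller chloroplast response was thus not shown to be particular to HRE1ox. In hypoxia 12 of the 69 were lower in HRE1ox than in WT (background 1.77%), and in air limma called 0 of the 69 (background 1.35%). In air 8 of the 69 had an unadjusted p under 0.05, against 3175 of all 13687.

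Of the chloroplast genes next to ndhF, chosen here after their values were seen, petD of the cytochrome b6f complex differed by -1.24 ± 0.34 (adjusted p = 0.179), petN by -1.14 ± 0.32 (adjusted p = 0.179), the ribosomal protein gene rpl20 by -1.07 ± 0.19 (adjusted p = 0.0692) and rpoB of the plastid RNA polymerase by -0.98 ± 0.26 (adjusted p = 0.168). At the other end rpoC1 differed by 0.18 ± 0.19 and atpA by 0.10 ± 0.14. The 8 nuclear genes of green tissue had a median difference of -0.06 (from -0.17 to 0.02) and 0 were called, with 0 at an unadjusted p under 0.05. The plant GAPDH transcript has probe sets at both ends, and their 3' over 5' difference, which grows with RNA degradation, was 2.08 and 2.86 log2 in HRE1ox hypoxia and 2.201 and 2.820 in HRE1ox air, against 2.01 and 2.56 in WT hypoxia and 1.88 and 2.91 in WT air. Its part in the chloroplast values was not tested.

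**Figure D4:**
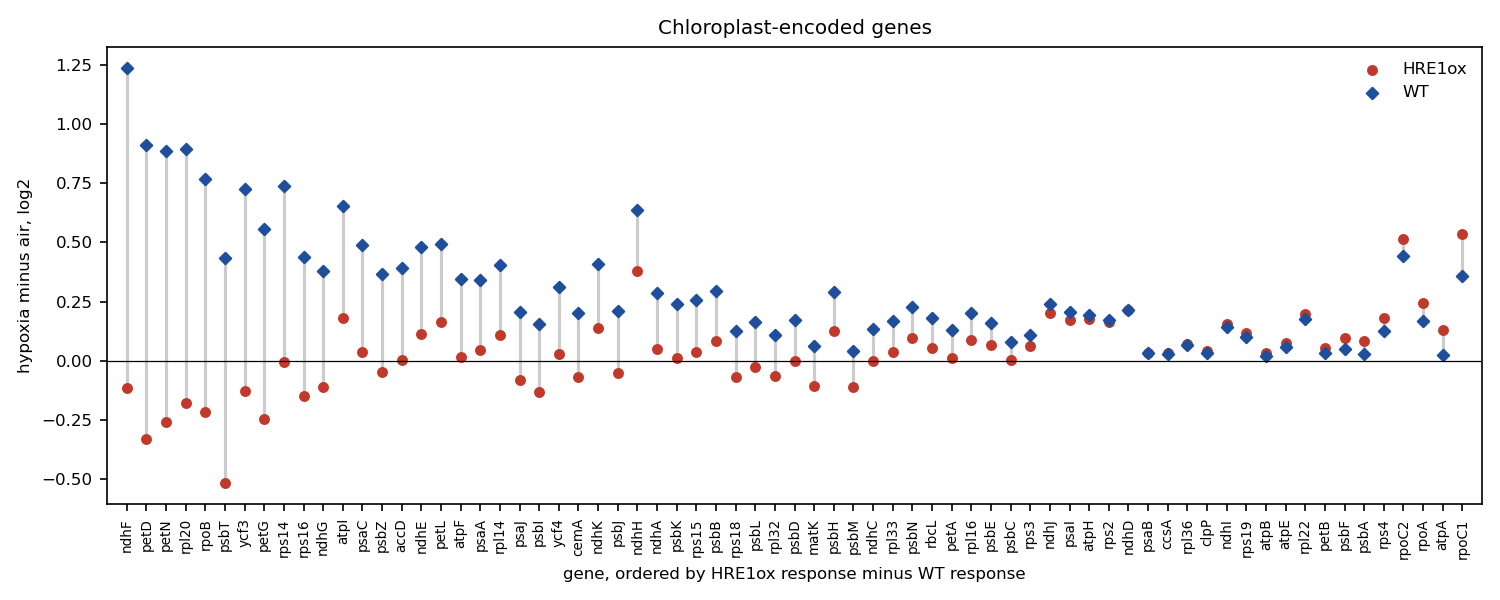
The hypoxia minus air difference on the log2 scale (vertical axis) of 69 chloroplast-encoded genes is shown in HRE1ox (red circles) and WT (blue diamonds), ordered by the difference between the responses. The WT points all lie above 0, and ndhF at the left has the widest gap.

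Among 12 measured expansins and expansin-like genes EXPB3 was the 1 called, in the positive direction (background 0.285%), and the list had a median difference of -0.21. EXLA1 and EXLA2 had -0.83 ± 0.14 and -0.91 ± 0.25 (adjusted p = 0.0574 and 0.173), not called. Of 5 xyloglucan hydrolases XTH16 was called in the negative direction (background 0.292%), all 5 differences were negative, and the median was -0.80. XTH18 and XTH19 had -1.03 ± 0.18 and -0.80 ± 0.18 (adjusted p = 0.0682 and 0.116). Of 2 measured genes of seedling reserve use CP1 was called in the negative direction (background 0.292%). ICL, isocitrate lyase, which lets seedlings turn stored fat into sugar, missed the threshold. ICL read 7.57 and 6.64 in HRE1ox hypoxia and 6.67 and 6.31 in HRE1ox air, against 7.49 and 6.89 in WT hypoxia and 5.65 and 4.86 in WT air. In WT it was higher in hypoxia than in air by 1.93 ± 0.14, in HRE1ox by 0.61 ± 0.14, and the difference was -1.32 ± 0.20 (adjusted p = 0.0509).

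All 10 autophagy genes of the ATG family had negative differences (median -0.33, from -0.57 to -0.08), and 0 were called (background 0.577%), with 3 at an unadjusted p under 0.05. Over all tested probe sets the difference was positive in 7020 of 13687, and 1896 of 13687 had an unadjusted p under 0.05. The median HRE1ox minus WT level of these 10 was -0.01 in hypoxia and 0.38 in air. Among 4 genes of reactive oxygen and mitochondrial stress 0 were called (background 0.577%) and 3 had an unadjusted p under 0.05, against the same 1896 of 13687. CML38 stood at the positive end, as given above, and the zinc finger repressor STZ and the mitochondrial stress gene AT2G21640 at the negative end, with -0.83 ± 0.17 and -0.90 ± 0.26 (adjusted p = 0.095 and 0.188). STZ was lower in HRE1ox hypoxia than in WT hypoxia (-1.01 ± 0.12, adjusted p = 0.00774). UGT85A4 was the 1 called among 26 glycosyltransferases, in the positive direction (background 0.285%; median -0.01). The 3 root hair genes EXPA18, EXPA7 and GH9C1 had 0.00 ± 0.29, -0.43 ± 0.34 and -0.50 ± 0.26, with 0 called and 0 at an unadjusted p under 0.05. Of the PUB ubiquitin ligases (6 measured), glutathione transferases (9), cytochromes P450 of the CYP71B group (9), beta-glucosidases (9), calmodulin-like genes (5), defence genes (11), auxin genes (4) and heat shock genes (2) 0 were called, with 3, 2, 1, 3, 2, 1, 0 and 0 at an unadjusted p under 0.05. Of all probe sets 0.577% were called and 1896 of 13687 had such a p, so nothing is read from these small counts.

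The HRE2ox line gave a test of whether the HRE1ox response also differed from that of another transgenic line. These 2 responses share no array. The test and the HRE2ox responses came from a fit of all 12 arrays without a block, while the HRE1ox responses given beside them came from the 8-array fit. It called 40 probe sets (0.292%), 20 with a more positive and 20 with a more negative response in HRE1ox (0.146% each). Without 1 array the number was 9 for HRE1ox air replicate 1, 5 for HRE1ox air replicate 2, 7 for HRE1ox hypoxia replicate 1, 8 for HRE1ox hypoxia replicate 2, 6 for HRE2ox air replicate 1, 7 for HRE2ox air replicate 2, 7 for HRE2ox hypoxia replicate 1 and 5 for HRE2ox hypoxia replicate 2. AT2G22880 responded by 4.42 ± 0.13 in HRE1ox and 2.56 ± 0.15 in HRE2ox, a difference of 1.87 ± 0.21 (adjusted p = 0.015). AT4G30680 and AT5G01700 had HRE2ox responses of 0.18 ± 0.15 and 0.03 ± 0.14, and HRE1ox exceeded them by 1.63 ± 0.21 and 1.41 ± 0.19 (adjusted p = 0.0228 and 0.0302). AT1G04350 and AT5G48350 differed by 1.37 ± 0.21 and 1.59 ± 0.23 (adjusted p = 0.0373 and 0.0359). In the negative direction AT1G47400 responded by -0.27 ± 0.15 in HRE1ox and 1.40 ± 0.17 in HRE2ox, a difference of -1.68 ± 0.24 (adjusted p = 0.0359), and AT5G45950 differed by -1.34 ± 0.21 (adjusted p = 0.046). Comparisons of HRE1ox with HRE2ox and with WT share the 4 HRE1ox arrays.

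For other named genes the difference from HRE2ox did not pass the test. CP1 responded by -0.51 ± 0.16 in HRE1ox and -0.02 ± 0.33 in HRE2ox, a difference of -0.49 ± 0.46 (adjusted p = 0.961). AT1G10585 was near background in HRE2ox hypoxia too, at 2.93 and 2.93, against 4.23 and 4.20 in WT hypoxia, and the HRE1ox minus HRE2ox difference was -0.08 ± 0.17 (adjusted p = 0.979). AT4G33560 responded by 6.90 ± 0.20 in HRE2ox, and the difference was 0.42 ± 0.28 (adjusted p = 0.917). ndhF read 4.37 and 5.78 in HRE2ox hypoxia and 4.12 and 4.31 in HRE2ox air, so its 2 hypoxia arrays disagreed (difference -0.97 ± 0.50, adjusted p = 0.832). Several genes with wide differences between the transgenic lines were not called against WT. AT4G30380, a barwin-related gene, responded by 4.83 ± 0.28 in HRE1ox and 2.17 ± 0.26 in HRE2ox (difference 2.66 ± 0.37, adjusted p = 0.0351), and against WT by 2.36 ± 0.39 (adjusted p = 0.0574). The chitinase family gene AT3G47540 differed by 2.09 ± 0.26 between the lines (adjusted p = 0.0196) and by 1.19 ± 0.20 from WT (adjusted p = 0.0612). AT2G04050, a transporter of the MATE family, responded by -0.02 ± 0.22 in HRE1ox and 2.90 ± 0.32 in HRE2ox (difference -2.92 ± 0.45, adjusted p = 0.0373), and its difference from WT of -1.31 ± 0.31 was not called (adjusted p = 0.124). Between the lines AT2G07777 also differed by 1.85 ± 0.25, AT5G22580, of the stress-responsive A/B barrel family, by -1.41 ± 0.21 and AT5G57760 by -1.96 ± 0.27 (adjusted p = 0.0302, 0.0373 and 0.0328), with differences from WT of 0.19 ± 0.24, -0.71 ± 0.18 and -0.37 ± 0.22.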

How the data were processed

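Total RNA of whole seedlings was hybridised to 12 Affymetrix ATH1 arrays. The authors deposited intensities that are not log-transformed. GCRMA, a background correction with quantile normalization, is named in the submitters' processing notes without version or settings. Arrays were grouped by title. Values were taken as log2 (intensity + 1), and 13687 of 22810 probe sets were tested, after leaving out 64 controls and 9059 below the filter. A platform table joined to RefSeq (TAIR10.1) gave 1 gene for 13513 probe sets and several for 503, and 8730 are not listed in it.

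The main fit was limma 3.58.1 (R 4.3.3; lmFit, eBayes) on 8 arrays with replicate number as a fixed block, leaving 3 residual and 4.09 prior degrees of freedom. The series text calls the replicates biological, and no label ties arrays of equal number to a shared day or batch. The replicate 1 minus replicate 2 differences of the 4 groups correlated at 0.67 to 0.75 in all 6 pairs, so the numbers were taken to pair these arrays, and at -0.58 to -0.24 with those of HRE2ox, whose arrays were left out of this fit. HRE1ox minus HRE2ox used all 12 arrays without a block (6 residual degrees of freedom). P-values are two-sided, with Benjamini-Hochberg adjustment within a comparison. The small number of arrays limits precision.

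The members, the lists and the naming rule were chosen with earlier results of these data known. By that rule the named items may be 15 called probe sets with 1 gene at each end of the ranking, the 5 highest and 5 lowest called without, up to 4 called members of each list, any measured member of the hypoxia, fermentation, oxygen-sensing and glycolysis lists, and the 5 highest and 5 lowest called with 1 gene against HRE2ox. EXLA1, EXLA2, XTH18, XTH19, ICL, STZ, AT2G21640, EXPA18, EXPA7, GH9C1, 245173_at and chloroplast genes other than ndhF were chosen after their values were seen. Where a listed gene had several probe sets, the brightest on average stood for it.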

Additional observations from a re-analysis of the deposited data

Results flagged for a closer look

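The hypoxia response differed between genotypes, by a test of the difference itself, for 79 probe sets between HRE1ox and WT and for 40 between HRE1ox and HRE2ox. Among the named probe sets, those whose HRE1ox response was also called different from HRE2ox were higher in HRE1ox by 2.25 (250610_at), 1.83 (248125_at), 1.56 (263391_at), 1.87 (AT2G22880), 1.63 (AT4G30680), 1.59 (AT5G48350), 1.41 (AT5G01700) and 1.37 (AT1G04350) on the log2 scale. Their HRE1ox minus HRE2ox difference was -1.98 for 250662_at, -1.68 for AT1G47400, -1.34 for AT5G45950 and -3.62 for the unassigned probe set that was high on all HRE1ox arrays. The probe sets 250610_at, 248125_at and 263391_at and those of AT4G30680, AT5G48350 and AT5G01700 passed the filter only through the HRE1ox hypoxia arrays. Groups of 2 arrays are too small for a test of single outlying arrays.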

How the results depend on the processing

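The number of probe sets called between the HRE1ox and WT responses, 79 with the replicate block, was 1 without the replicate block on the same 8 arrays, 11 with all 12 arrays and no replicate block, and 12 with all 12 arrays and the replicate block. It was 1 with no filter, 222 with the stricter filter (87 higher, 135 lower), 258 with an offset of 16 (108 higher, 150 lower), 432 with a trended and robust eBayes (165 higher, 267 lower), 1 with a required change of 2-fold, and 272 at an adjusted p under 0.1, a level chosen after seeing the data. Leaving out 1 array gave 1 to 12 calls. Median centring, no offset and 1 probe set per gene gave 81, 69 and 79. The number between the HRE1ox and HRE2ox responses, 40, was 9 on their 8 arrays only with no replicate block, 5 with a required change of 2-fold and 5 to 9 without 1 array, and lay between 28 and 47 under the other settings, with 43 for the replicate block. The cause of these shifts was not tested. Over the 40 named probe sets, 266 alternative values kept the call, 476 lost it and 0 changed sign. Many of these settings, among them no replicate block, no filter and a required change of 2-fold, keep the difference of the main fit. The sign could not change there, so its constancy is no test of stability. With 2 arrays a group the smallest called differences were 0.93 and -0.87, and signal near background bounds the size for 15 of 39 and 10 of 40 calls. Promoter motifs were planned but are not analysed here, since no promoter sequence was used.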
